A study of Mus musculus with 4 samples.

Results

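Mitosis is run by a set of genes that dividing cells switch on late in the cell cycle, and 43 of them were followed here in mouse erythroblasts, out of 23234 genes listed. They were taken by gene name and sorted by role: cyclins and entry kinases, the spindle checkpoint, anaphase regulators, the kinetochore, the chromosomal passenger complex, condensin and chromosome structure, spindle motors, and cytokinesis. The rule used gene names and no cut on a measured value. All 43 had a row and reached at least 1 FPKM in every library, so none was lost to a filter on low values. FPKM is the number of sequenced fragments divided by transcript length and by library size, so levels of different genes can be compared per length.

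The cells were extensively self-renewing erythroblasts, which are early red cell precursors derived from the early mouse fetus and grown in culture. The labels described 4 groups of 1 sample each. The proliferating control carried a non-targeting short hairpin RNA and the proliferating knockdown carried one against Setd8. The maturing control carried the non-targeting hairpin and spent 6 h in maturation medium before RNA was collected. The maturing knockdown, with the Setd8 hairpin and the same medium, was not analysed here. For strain, age and any pooling of cultures, nothing is given in the sources used here. All groups carry a hairpin. With 1 library per group no difference below has a replicate check.

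In mitosis Cdk1 with cyclin A or B drives the cell in, the checkpoint holds anaphase until kinetochores are attached, condensin compacts the chromosomes, and the central spindle and contractile ring then divide the cell. Setd8 places a single methyl group on histone H4, a mark that is highest in mitosis and that condensin II subunits can bind. Maturing red cell precursors undergo their last divisions while they condense the nucleus.

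Setd8 itself (chromosome 5, 124889938 to 124912316, mm9) had levels of 25.1 FPKM (proliferating control), 9.28 (knockdown) and 25.9 (maturing control). Its knockdown level was 37.0% of that in the control, and the authors' deposited table called Setd8 lower (log2 ratio -1.43, q 0.0122). Relative to the proliferating control, 1 fragment was worth less in the other libraries, which gave the knockdown library a depth of 1.43 times and the maturing control 1.55 times that of the control. Of 9 erythroid markers, 8 reached 1 FPKM in the control, 7 in the knockdown and 9 in the maturing control. Only Gata1 was higher in the knockdown than in the control (61.1 and 52.8 FPKM), and every other marker listed was lower. Klf1, Epor and Tfrc kept 56.7%, 48.7% and 53.0% of their control level there. Alas2 was at 4.55 FPKM in the control, 0.09 in the knockdown and 4.41 in the maturing control. Summed levels of the 9 markers were 1822, 672 and 2957 FPKM in that order. These sums include the globin rows Hba-a1 (843, 265 and 1747) and Hbb-b1 (798, 280 and 963). Mast cell and basophil markers summed to 54.2 FPKM in the control, 449.8 in the knockdown and 33.7 in the maturing control, with 4, 7 and 3 of 8 at 1 FPKM or more. Megakaryocyte markers summed to 3.14, 9.93 and 2.98 FPKM and granulocyte and monocyte markers to 4.77, 11.8 and 5.03 FPKM, with Elane and Lyz2 listed at 0 in each library. None of 4 lymphocyte markers reached 1 FPKM in any library. These shifts moved with the knockdown and their part in the mitotic values was not tested. In bulk RNA, fewer cells of a type and less RNA per cell cannot be told apart.

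The start regions of genes of this kind are known for CCAAT boxes and for the cell cycle genes homology region, whose core is written TTTGAA or TTTAAA. RefSeq promoters on GRCm38.p6 matched 36 of the 43 genes. The 250 bases before the start held CCAAT on either strand in 27 of the 36 (75%), against 34.5% of 27025 promoters of all genes. TTTGAA on either strand was in 13 (36.1%) against 16.3%, and TTTAAA, which reads alike on both strands, was in 6 (16.7%) against 12.1%. CCAAT and TTTGAA stood together in 12 (33.3%) against 5.73%. The background takes every gene with a promoter, whether or not it was measured in these cells, while all 36 matched genes were measured. Shares among measured genes alone were not counted. Presence was scored for each motif alone, whether or not it overlapped another, and a match says only that these letters occur. The 6 promoters here show the motifs and the ends of the knockdown range among matched genes: Cdk1, Top2a and Cdc20 hold both CCAAT and TTTGAA, Ccnb1 holds TTTAAA, Kif23 had the highest knockdown ratio of the matched genes and Pttg1, without a match in these bases, the lowest. Each is the 150 bases before the start, 5′ to 3′ on the gene's strand, with matches in capitals.
Cdk1 (chr10:69352913-69353062, minus strand): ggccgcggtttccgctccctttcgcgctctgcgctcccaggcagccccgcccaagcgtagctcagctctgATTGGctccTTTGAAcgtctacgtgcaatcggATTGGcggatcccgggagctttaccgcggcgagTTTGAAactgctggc
Top2a (chr11:99024190-99024339, minus strand): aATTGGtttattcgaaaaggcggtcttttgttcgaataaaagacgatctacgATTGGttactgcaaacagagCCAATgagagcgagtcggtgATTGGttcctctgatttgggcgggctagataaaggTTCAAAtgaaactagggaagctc
Cdc20 (chr4:118437344-118437493, minus strand): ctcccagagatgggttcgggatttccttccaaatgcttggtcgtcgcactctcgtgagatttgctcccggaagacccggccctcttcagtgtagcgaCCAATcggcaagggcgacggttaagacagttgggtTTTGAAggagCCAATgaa
Ccnb1 (chr13:100786487-100786636, minus strand): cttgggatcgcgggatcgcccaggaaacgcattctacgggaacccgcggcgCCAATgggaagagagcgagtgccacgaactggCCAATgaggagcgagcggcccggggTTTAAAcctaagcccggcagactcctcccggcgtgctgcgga
Kif23 (chr9:61946800-61946949, minus strand): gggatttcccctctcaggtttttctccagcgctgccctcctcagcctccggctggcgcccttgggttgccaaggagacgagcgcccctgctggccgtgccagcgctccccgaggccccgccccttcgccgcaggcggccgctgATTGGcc
Pttg1 (chr11:43425982-43426131, minus strand): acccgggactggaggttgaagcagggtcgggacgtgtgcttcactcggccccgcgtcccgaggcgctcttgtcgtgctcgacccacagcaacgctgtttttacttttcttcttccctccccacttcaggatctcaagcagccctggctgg

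The knockdown comparison asked how the mitotic genes stood when Setd8 was reduced in proliferating cells. Of the 43 genes, 39 had a lower value in the knockdown and 4 (Bub3, Cenpf, Kif23 and Prc1) a higher one, while 55.6% of all measured genes and 58.0% of genes in the same control range (1.04 to 31.9 FPKM) were lower. The median log2 ratio of FPKM + 1, a scale that understates the change of low genes, was -0.29 for the 43 genes, beside -0.05 for all measured genes and -0.06 for genes in that range. A ratio lower by 0.5 or more was found for 11 of the 43, beside 8.81% of measured genes, and none was higher by that much, where 10.9% of measured genes were. The authors' deposited table, which tested each gene with a model of 1 library per group, called none of the 43 in either direction, where it called 3.24% of tested genes lower and 5.81% higher. Among genes in the same control range it called 2.12% lower and 1.32% higher. Its smallest called difference among genes in this range was 1.18 on the log2 scale, and the median standard error its model gave the 43 genes was 0.47, from 0.37 to 0.80. Members are not replicates, and genes of one process share their cells and library. Their summed level was 455 FPKM in the control, 356 in the knockdown and 564 in the maturing control, and their median level was 8.34, 6.19 and 10.5 FPKM.

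**Figure D1:**
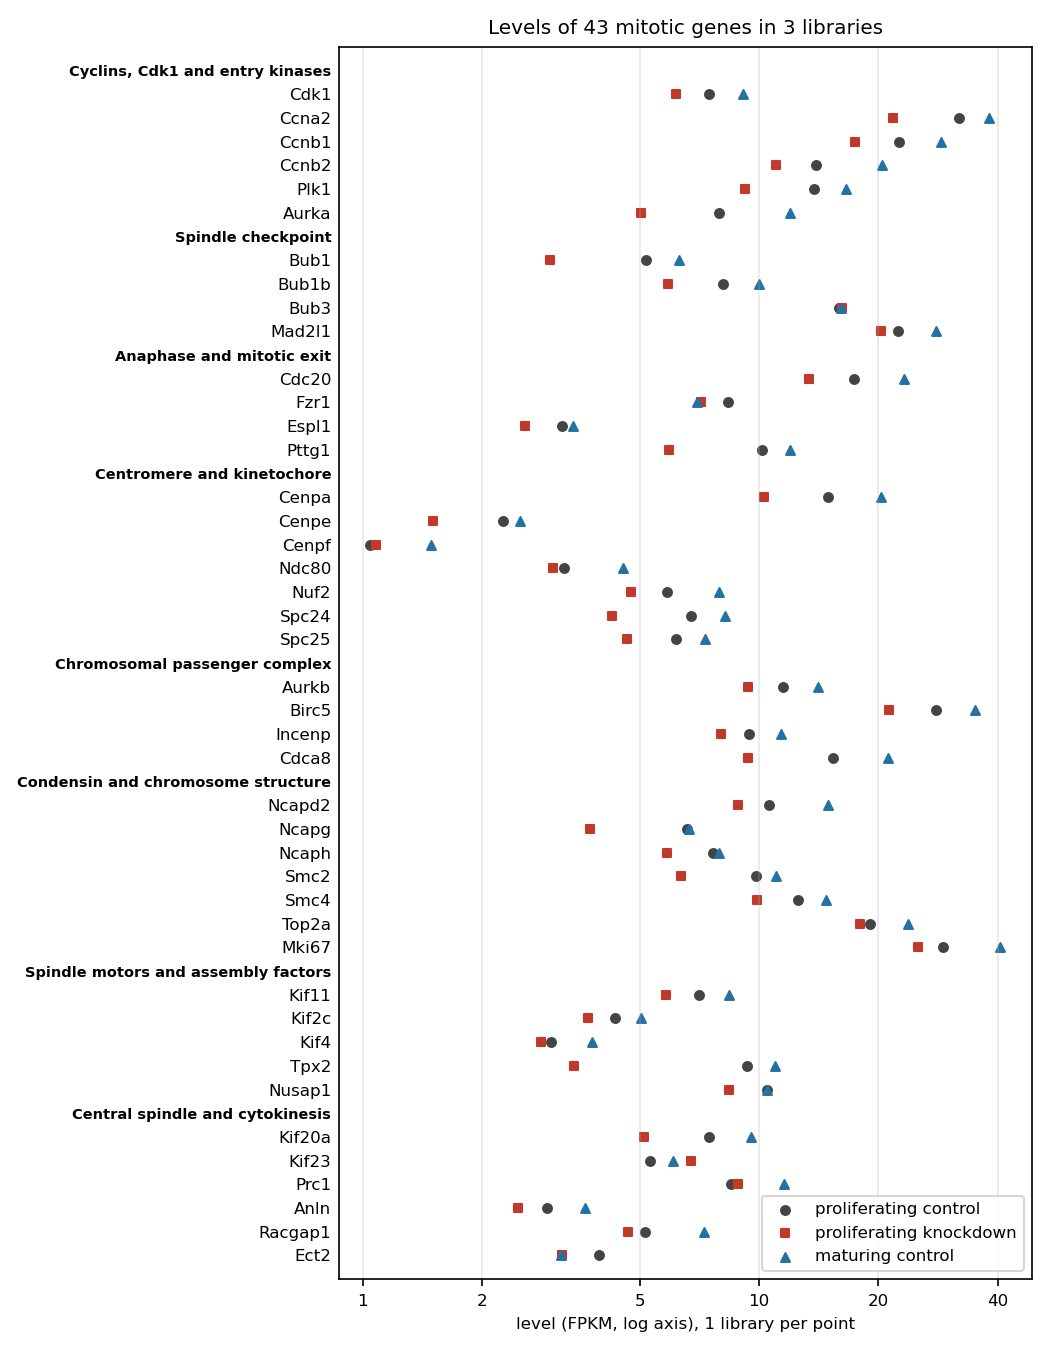
Level of each of the 43 genes in FPKM on a log axis, grouped by role, with 1 point per library (proliferating control, proliferating knockdown, maturing control). Most knockdown points lie left of the control points and most maturing points right of them.

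Tpx2, which targets Aurora A to spindle microtubules and activates it, held the most separate value of the set. It was at 9.33 FPKM in the control, 3.42 in the knockdown and 11.0 in the maturing control (chromosome 2, 152673699 to 152721057, mm9). Its knockdown level was 36.6% of that in the control, and Tpx2 went from the 20th place in level among the 43 genes to the 35th. The authors' deposited table gave Tpx2 a log2 ratio of -1.45 with a model standard error of 0.55, a 95% model interval of -2.53 to -0.37, a p of 0.00854 and a q of 0.10. Tpx2 was the only one of the 43 with a p under 0.05 there and was not called. Of 9498 measured genes tested in the knockdown, 373 had such a p with a lower value and 604 with a higher one. After Tpx2 the lowest knockdown q in the authors' deposited table were those of Bub1, Cdca8, Smc2, Ncapg and Pttg1, and every other member had 0.865 (Aurka) or above.

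The cyclins and entry kinases had a median knockdown ratio of -0.44 and a median maturation ratio of 0.30 over 6 genes. Cyclin A2 (Ccna2), which partners Cdk1 and Cdk2, was the highest of the 43 in the control, at 31.9 FPKM, with 21.8 in the knockdown and 38.0 in the maturing control. The Ccna2 locus overlaps that of Exosc9 (6.39 FPKM in the control, 5.17 in the knockdown and 7.19 in the maturing control), so fragments could be shared. Cyclin B1 (Ccnb1), whose promoter is printed above, was at 22.5, 17.5 and 28.7 FPKM in the same order of libraries, which is kept below. Cyclin B2 (Ccnb2), the second B-type partner of Cdk1, was at 13.9, 11.1 and 20.4 FPKM. Cdk1, the kinase that drives entry, was at 7.45, 6.19 and 9.12 FPKM and kept 83.0% of its control level in the knockdown, the smallest knockdown difference of this group. The Polo kinase Plk1 was at 13.8, 9.23 and 16.6 FPKM. Aurora A (Aurka, chromosome 2, 172181695 to 172196006) was at 7.92 FPKM in the control, 5.04 in the knockdown and 11.9 in the maturing control, the lowest knockdown ratio and the highest maturation ratio of its group. For Aurka the authors' deposited table gave log2 ratios of -0.65 (q 0.865) and 0.59 (q 0.891). In the authors' deposited table the knockdown log2 ratio of Cdk1 was -0.27 (q 1.0) and that of Ccna2 -0.55 (q 0.875). None of these 6 passed the authors' test in either comparison.

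Among the 4 checkpoint genes Bub1 had the lowest knockdown ratio. This kinase, which loads the other checkpoint proteins on the kinetochore, was at 5.18 FPKM in the control, 2.97 in the knockdown and 6.28 in the maturing control (chromosome 2, 127625935 to 127657595). The knockdown held 57.3% of the control level, and the authors' deposited table gave Bub1 a log2 ratio of -0.80 (standard error 0.48, p 0.0914, q 0.575). Its relative BubR1 (Bub1b) was at 8.11, 5.89 and 9.98 FPKM. Mad2 (Mad2l1), which binds and holds Cdc20, was at 22.4, 20.3 and 27.9 FPKM, the highest of the group in each library. Bub3, the partner of both Bub kinases, was level at 15.9, 16.2 and 16.1 FPKM, with log2 ratios of 0.03 and 0.02 in the authors' deposited table (both q 1.0).

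Among the 4 anaphase regulators, securin (Pttg1, chromosome 11, 43233749 to 43239750) had the lowest knockdown ratio of the group. It was at 10.2 FPKM in the control, 5.91 in the knockdown and 12.0 in the maturing control, and the authors' deposited table gave it a log2 ratio of -0.79 (q 0.852). Separase (Espl1), the protease that securin holds inactive, was at 3.18, 2.57 and 3.39 FPKM. The ratio of Pttg1 to Espl1 was 3.21 in the control, 2.3 in the knockdown and 3.52 in the maturing control. Cdc20, the activator of the anaphase-promoting complex in mitosis, was at 17.4, 13.4 and 23.2 FPKM, and its locus overlaps that of Elovl1 (38.1, 51.1 and 43.7 FPKM), so fragments could be shared. Fzr1, which takes over from Cdc20 at mitotic exit and in G1, was at 8.34, 7.13 and 6.96 FPKM, and the authors' deposited table gave it log2 ratios of -0.23 and -0.26 (both q 1.0). Fzr1 was 1 of 2 genes among the 43 with a lower value in the maturing control. The ratio of Cdc20 to Fzr1 was 2.08, 1.87 and 3.33.

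Kinetochore genes had a median knockdown ratio of -0.34 and a maturation median of 0.28 over 7 genes. The 4 subunits of the Ndc80 complex, which grips microtubules, were led by Spc24 in the control at 6.74 FPKM (4.25 in the knockdown and 8.18 in the maturing control). Spc25 was at 6.15, 4.63 and 7.31 FPKM and Nuf2 at 5.85, 4.75 and 7.90. Ndc80 itself was the lowest, at 3.22, 3.02 and 4.53 FPKM, and its knockdown ratio of -0.07 went above 0, to 0.02, when libraries were centred on abundant genes. Spc24 had the lowest ratio of the complex, at -0.67 (log2 scale, q 0.917) in the authors' deposited table (chromosome 9, 21559885 to 21564730). CENP-A (Cenpa), the centromeric histone H3 variant, was at 15.0, 10.3 and 20.3 FPKM. The motor CENP-E (Cenpe) was at 2.26, 1.5 and 2.5 FPKM. CENP-F (Cenpf), the lowest of the 43 in the control, was at 1.04, 1.08 and 1.49 FPKM, and no call was made for it.

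The chromosomal passenger complex corrects faulty attachments and later marks the division plane. Survivin (Birc5) was its most abundant subunit at 27.9 FPKM in the control, 21.3 in the knockdown and 34.9 in the maturing control. Borealin (Cdca8, chromosome 4, 124595708 to 124614161) was at 15.4, 9.38 and 21.1 FPKM, the lowest ratio of the complex in the knockdown and the highest in maturation. The authors' deposited table gave Cdca8 log2 ratios of -0.71 (q 0.691) and 0.46 (q 1.0). Aurora B (Aurkb) was at 11.5, 9.37 and 14.1 FPKM and the scaffold Incenp at 9.45, 8.03 and 11.4 FPKM. The ratio of Cdca8 to Incenp was 1.63, 1.17 and 1.85. Cdca8 made up 23.9% of the summed complex in the control, 19.5% in the knockdown and 25.9% in the maturing control.

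Condensin I is built of the ATPases Smc2 and Smc4 and the subunits Ncapd2, Ncapg and Ncaph. Ncapg (chromosome 5, 46061163 to 46248779) was at 6.59 FPKM in the control, 3.75 in the knockdown and 6.67 in the maturing control. The knockdown held 56.9% of its control level, and the authors' deposited table gave it a log2 ratio of -0.81 (q 0.791). Its locus overlaps those of Lcorl and Gm3414, and the strand of counting is not given. Smc2 was at 9.85, 6.34 and 11.0 FPKM (log2 ratio -0.63 and q 0.696 in the authors' deposited table). Smc4 was at 12.6, 9.90 and 14.8, Ncaph at 7.63, 5.86 and 7.91, and Ncapd2 at 10.6, 8.85 and 15.0 FPKM. Ncapg made up 14.0% of the summed condensin levels in the control, 10.8% in the knockdown and 12.1% in the maturing control. The ratio of Ncapg to Ncapd2 was 0.62, 0.42 and 0.45. Topoisomerase II alpha (Top2a), which untangles sister chromatids, was at 19.0, 17.9 and 23.8 FPKM, and its ratio of -0.08 turned to 0.01 when libraries were centred on abundant genes. The proliferation antigen Mki67 (chromosome 7, 142881470 to 142908062) was at 29.1, 25.1 and 40.6 FPKM and had a maturation log2 ratio of 0.48 (q 0.853) in the authors' deposited table, next to 0.50 (q 0.921) for Ncapd2.

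**Figure D2:**
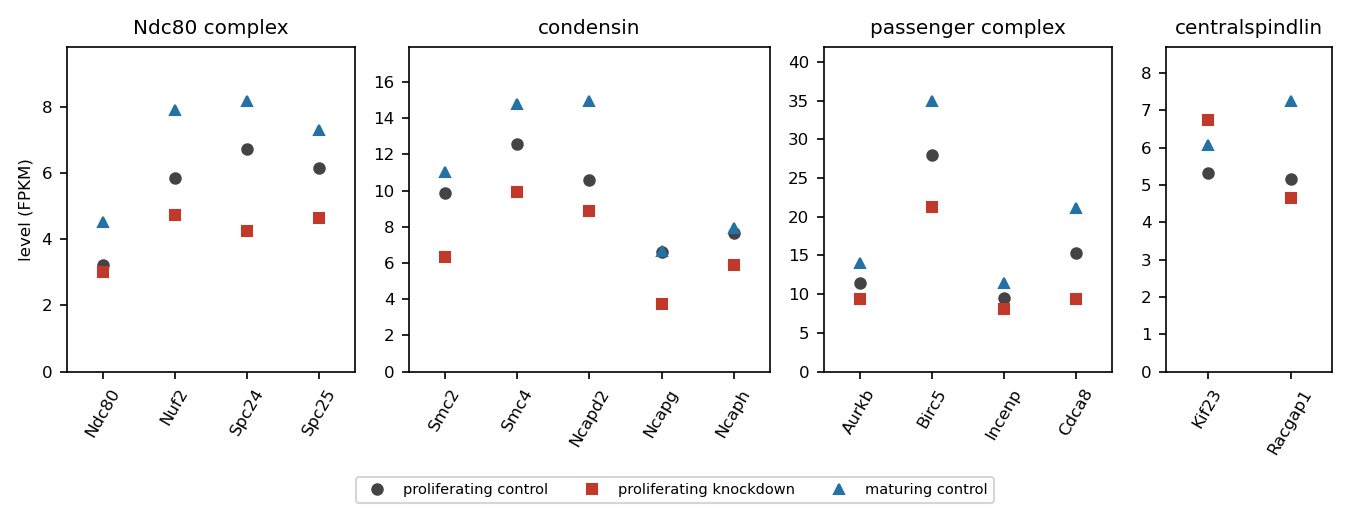
Level in FPKM of each subunit of 4 complexes (Ndc80, condensin, passenger complex, centralspindlin), with 1 point per library. As shares of the summed level of their complex, Spc24 (30.7% in the control, 25.5% in the knockdown), Cdca8, Ncapg and Smc2 were among those smaller in the knockdown. Kif23 was among those with a larger share.

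Spindle motors and assembly factors other than Tpx2 differed less between the control and the knockdown. Kif11, which slides spindle microtubules apart, was at 7.07, 5.81 and 8.4 FPKM. Kif2c, which takes microtubules apart at the centromere, was at 4.33, 3.71 and 5.05, and Kif4, a chromokinesin, at 2.98, 2.82 and 3.79 FPKM. Kif4 had a knockdown ratio of -0.06 that turned to 0.02 when libraries were centred on abundant genes. Nusap1, which bundles spindle microtubules, was at 10.4, 8.39 and 10.5 FPKM, a maturation ratio of 0.003 that turned to -0.01 on a TPM scale. The Nusap1 locus overlaps that of Oip5 (4.98, 4.03 and 6.88 FPKM). Tpx2 was 1.18 times the level of Aurka in the control, 0.68 times in the knockdown and 0.92 times in the maturing control.

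Cytokinesis genes had the highest median knockdown ratio of the role groups, -0.15 over 6 genes, and a maturation median of 0.28. Other processing settings gave knockdown medians from -0.18 to -0.03 for this group. Kif23, the motor subunit of centralspindlin, had the highest knockdown ratio of the 43 (chromosome 9, 61765084 to 61794606). It was at 5.31 FPKM in the control, 6.74 in the knockdown and 6.07 in the maturing control, and the authors' deposited table gave it a log2 ratio of 0.34 with a standard error of 0.45 and a q of 1.0. Its partner Racgap1 was at 5.15, 4.66 and 7.25 FPKM, so the ratio of Kif23 to Racgap1 was 1.03, 1.45 and 0.84. Kif20a, which brings passenger proteins to the midzone, was at 7.48, 5.11 and 9.52 FPKM with a model standard error of 0.80, the widest of the set, and its locus overlaps those of Cdc23 and Brd8. Prc1, which crosslinks the midzone microtubules, was at 8.47, 8.84 and 11.5 FPKM. Anillin (Anln), a scaffold of the contractile ring, was at 2.91, 2.47 and 3.65, and Ect2, which activates RhoA there, at 3.94, 3.19 and 3.16 FPKM. Ect2 was, with Fzr1, the second of the 43 with a lower value in the maturing control. Differences between these role groups were not tested.

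**Figure D3:**
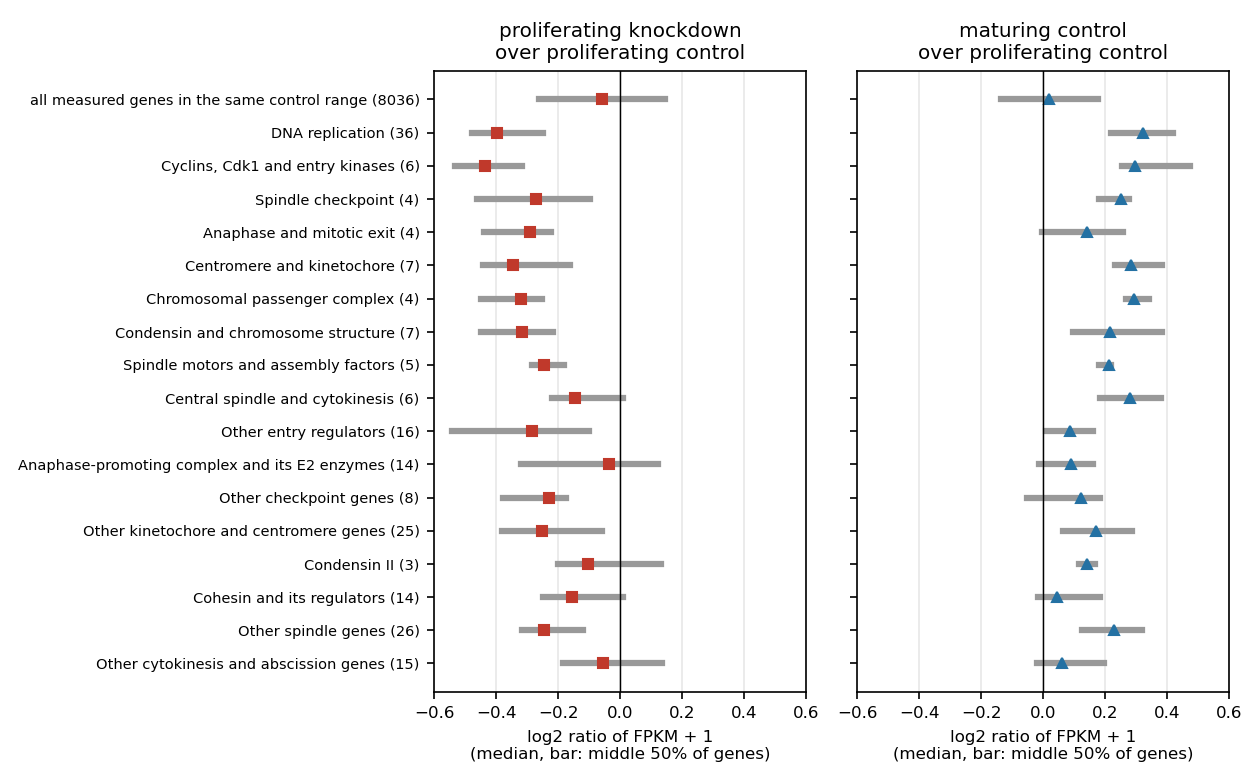
Median log2 ratio of FPKM + 1 for each gene list and for genes in the same control range, with bars over the middle 50% of genes, for both comparisons. The lists are the role groups, the lists of other mitotic genes and the DNA replication genes. Genes in that range have a median of -0.06 in the knockdown and 0.02 in maturation. The 43 genes as a whole are not drawn, and their medians were -0.29 and 0.25.

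The maturation comparison asked how the genes stood 6 h after the move to maturation medium in cells with the control hairpin. It shares the proliferating control library with the first comparison, so a low or high control value moves both. In the maturing control, 41 of the 43 genes had a higher value, beside 52.6% of all measured genes and 53.9% of genes in the same control range. The median log2 ratio of FPKM + 1 was 0.25, against 0.01 for all measured genes, and ranged from -0.25 (Ect2) to 0.54 (Aurka). Only Aurka and Ccnb2 reached 0.5, where 4.2% of measured genes did. The authors' deposited table called none of the 43, beside 0.584% of tested genes called higher and 1.17% lower (0.151% and 0.805% in the same control range), and its smallest q among them was 0.853 (Mki67). Its smallest called difference in this range was 1.2.

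**Figure D4:**
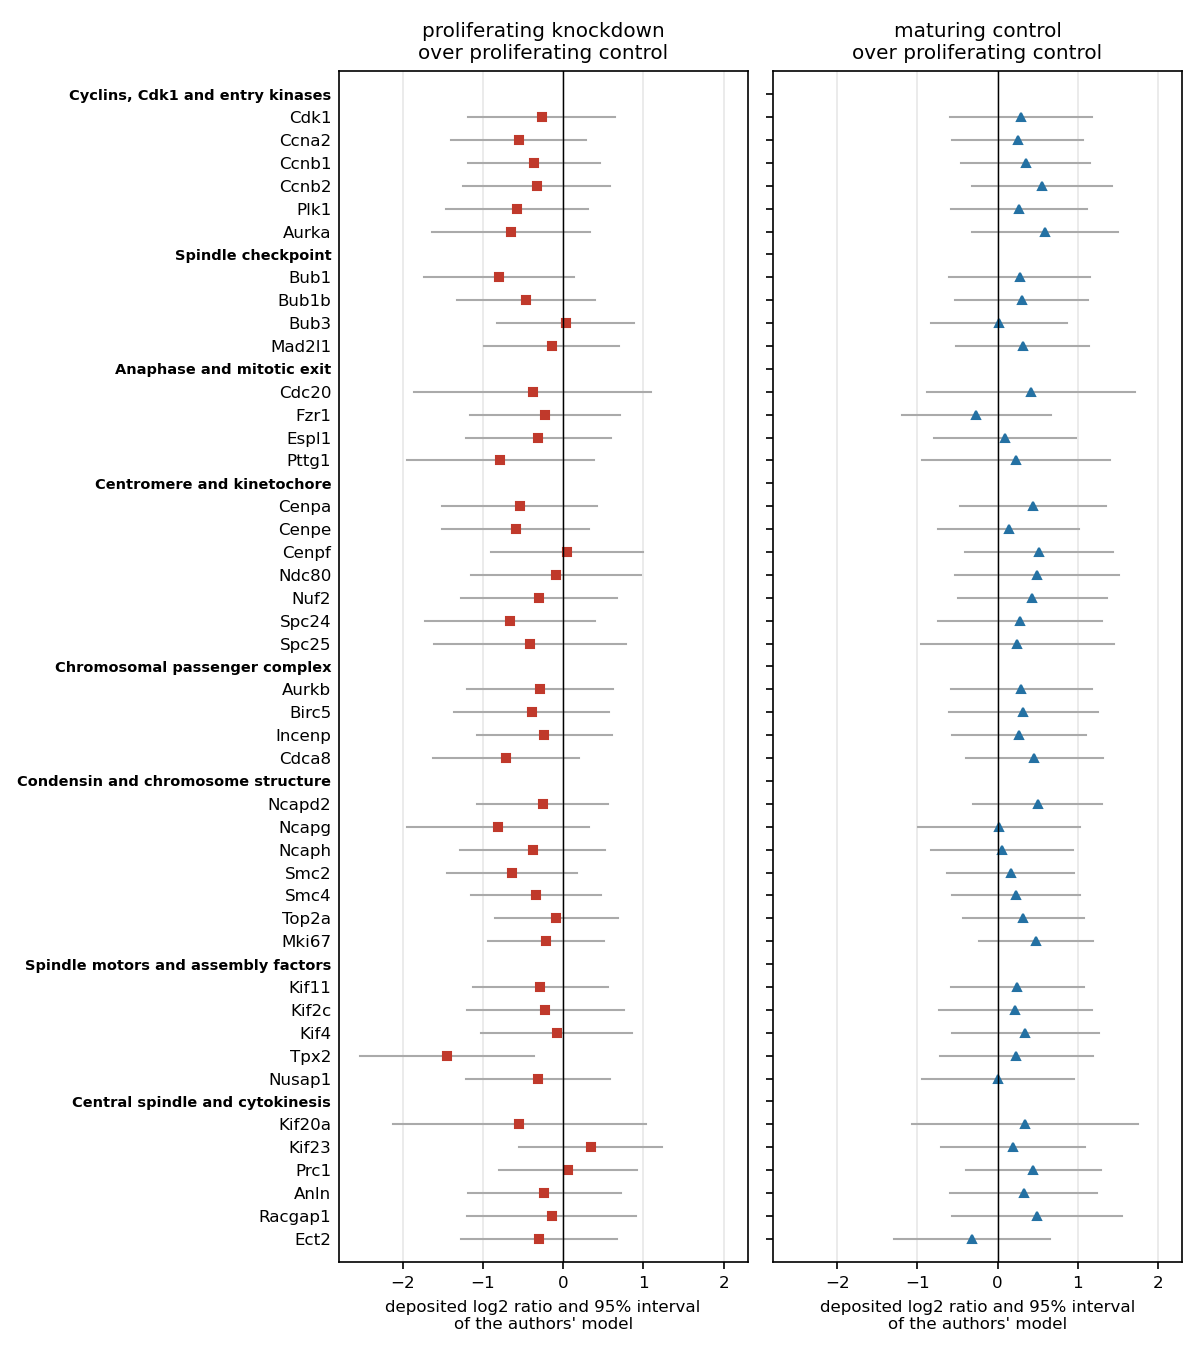
Deposited log2 ratio of each of the 43 genes with the 95% interval of the authors' model, knockdown at left and maturation at right. In the knockdown the interval of Tpx2 (-2.53 to -0.37) lies below 0, and Tpx2 was not called at a q of 0.10.

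The knockdown set beside the maturing control differed in both hairpin and medium and is a description. The authors' deposited table stops at 65535 rows and holds this comparison for 19067 of 23234 genes, so the comparison is incomplete. It is present for 37 of the 43 genes and absent for Spc24, Spc25, Smc2, Smc4, Top2a and Tpx2. Counts and shares of calls here cover only genes with a row. Tpx2, which has none, had a knockdown level of 31.2% of that in the maturing control. None of the 37 was called, beside 4.38% of tested genes called lower and 7.22% higher. The 4 with an unadjusted p under 0.05 in the authors' deposited table were Aurka (log2 ratio -1.24, q 0.118), Cdca8 (-1.17, q 0.116), Bub1 (-1.08, q 0.199) and Cenpa (-0.98, q 0.335). Of 7420 measured genes tested in this comparison, 444 had such a p with a lower value and 620 with a higher one. Kif23 had a log2 ratio of 0.15 in the authors' deposited table.

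**Figure D5:**
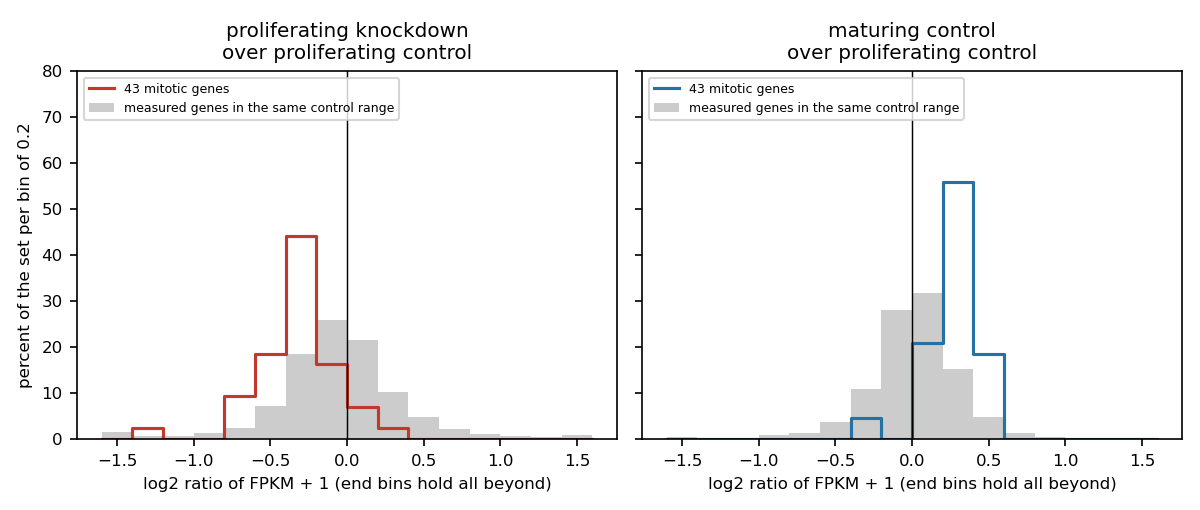
Share of the 43 genes and of measured genes in the same control range per bin of the log2 ratio of FPKM + 1, for both comparisons. In the knockdown the 43 genes lie mostly below 0 and in maturation mostly above it.

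The wider pathway held 121 other genes, all measured. In the knockdown 90 had a lower and 31 a higher value, with a median ratio of -0.19, and in maturation 97 were higher and 24 lower, with a median of 0.13. Of all measured genes 55.6% were lower in the knockdown and 52.6% higher in maturation. The authors' deposited table called Myh10 alone in the knockdown, where it called 3.24% of tested genes lower and 5.81% higher, and none of the 121 in maturation (0.584% higher and 1.17% lower). Myh10, the heavy chain of non-muscle myosin IIB in the contractile ring (chromosome 11, 68505416 to 68630126), fell from 5.11 to 1.22 FPKM and was at 5.14 in the maturing control. The authors' deposited table gave Myh10 a log2 ratio of -2.06 (q 0.000266). Mybl2, which drives late cell cycle genes, was at 11.7, 6.70 and 12.6 FPKM. Arhgap11a was at 11.6, 24.4 and 12.1 FPKM, with a q of 0.0809 in the authors' deposited table for the knockdown, and Anapc13, a subunit of the anaphase-promoting complex, at 21.6, 32.2 and 24.4. For maturation, genes at 5 FPKM or more in some library were ranked. The lowest ratio was that of the kinetochore gene Zwint (21.5 FPKM in the control and 12.9 in the maturing control), followed by Haus3 (8.43 and 6.58). The highest were those of Cenph (3.99 and 7.58) and Dlgap5 (3.48 and 5.91). Cdc25b, outside that ranking, had deposited log2 ratios of 1.36 in the knockdown (q 0.183) and 1.30 in maturation (q 0.173). In the knockdown beside the maturing control, the authors' deposited table called 2 of 102 tested genes of the wider pathway lower and none higher. Over all tested genes it called 4.38% lower and 7.22% higher there. The genes called were Cenph (log2 ratio -1.69, q 0.0261) and Myh10 (q 0.000252).

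Condensin II, the complex whose subunits can bind the Setd8 mark, had 3 measured subunits of its own. Ncaph2 was the most abundant at 10.8 FPKM in the control, 9.98 in the knockdown and 12.0 in the maturing control. Ncapd3 was at 4.41, 3.42 and 5.19 FPKM. Ncapg2 was at 2.97, 4.11 and 3.22 FPKM, with a log2 ratio of 0.47 in the authors' deposited table for the knockdown, so these subunits had no common direction there and none was called. As a set of genes that dividing cells also express, 36 DNA replication genes had a median of -0.40 in the knockdown with 35 lower, and 0.32 in maturation with 33 higher, and none was called in either. Over all measured genes 55.6% were lower in the knockdown and 52.6% higher in maturation, and the shares of tested genes called are those given for the wider pathway. A difference between the lists was not tested.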

How the data were processed

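RNA was sequenced in 4 samples, 1 per group, and 3 libraries were analysed. The submitters' processing notes name FastQC 0.10.1, Cufflinks 2.0.2, Cuffdiff and mm9. Aligner and annotation: not given in the sources used here. What the authors deposited was a Cuffdiff-style table whose values per library were read as FPKM, since the labels name Cuffdiff. The log2 ratio, p-value and q-value are those of the authors' deposited table, with calls at a q of at most 0.05. The standard error was the ratio of the deposited log2 ratio to the statistic, and 95% intervals used 1.96 of it. The knockdown library was matched by target and number. The sample's title opens like those of the controls and leaves the number unexplained, so every knockdown value rests on this match.

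Ratios used FPKM + 1, and 9611 genes counted as measured, with 1 FPKM or above in some library. No test was run, because there was 1 library per group. Absolute depth is unknown, and relative depth came from values below 0.03 FPKM. Promoters were from RefSeq (GRCm38.p6), while loci of the files are mm9. The members and all lists were chosen with earlier results of these data known. The rule named every member, condensin II, every called gene of the wider pathway and its 2 highest and 2 lowest ratios at 5 FPKM or more. Python 3.11.15, numpy 2.4.6 and pandas 2.3.3 were used.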

Additional observations from a re-analysis of the deposited data

How the results depend on the processing

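No paired analysis was possible because each group had 1 library. The counts of members called stayed at 0 under every filter and threshold tried, but this outcome was fixed in advance. Stricter settings can only remove calls, and dropping the filter adds no member because all 43 genes already passed it. The knockdown median of the 43 genes was -0.29, and -0.20 with a pseudocount of 5 and with centring on genes at 5 FPKM or more in every library, and the maturation median went from 0.25 to 0.18 with a pseudocount of 5. Under that centring, in a count chosen after seeing the data, 7 rather than 4 members had a higher value in the knockdown, Kif4, Ndc80 and Top2a joining them. With a filter at 5 FPKM, likewise chosen after seeing the data, 1 rather than 2 members had a lower value in maturation. No median of the 43 genes or of their role lists changed its sign, while the knockdown median of all measured genes went from -0.05 to 0.04 under that centring. Scaling moved the median of all genes by at most 0.0859. Among genes in the members' control range, the smallest size the authors called was 1.18 in the knockdown and 1.2 in maturation (log2), and 1 library per group leaves no spread between replicates.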

Other observations

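The 13 of 36 matched promoters with TTTGAA belong to genes with a median knockdown ratio of -0.23 and a maturation median of 0.22. The 23 without it had medians of -0.33 and 0.27. These are values with no test.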
